A study of Mus musculus with 20 samples.

Results

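The ubiquitin-conjugating (E2) enzymes of the mouse were followed from the fully grown oocyte to the 2-cell embryo, with and without the maternal gene Btg4. Members were taken by name: every gene symbol of the deposited tables that begins with Ube2 followed by a letter, leaving out Ube2c and Ube2s, the pair that serves the anaphase-promoting complex. This gave 35 members of 23309 symbols, and none of their measured values entered the choice. Ubiquitin is activated by an E1 enzyme, passed to the active-site cysteine of an E2 enzyme and attached to a target protein with the help of an E3 ligase. The E2 decides much of the outcome, since some E2 enzymes place the first ubiquitin, others extend chains of a given linkage, and a few carry SUMO, NEDD8 or other ubiquitin-like proteins instead. Maturing oocytes and early embryos depend on stored maternal mRNAs, which are translated and cleared on schedule, and on ubiquitin-dependent removal of maternal proteins. BTG4 is an adaptor that brings the CCR4-NOT deadenylase to maternal mRNAs during maturation.

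The RNA-seq libraries were made from ICR mice. In the Btg4 experiment there were 8 groups of 2 libraries, wild type and labelled Btg4-/-, at the germinal vesicle (GV) stage, at metaphase of the second meiotic division (MII), in the zygote and at 2 cells. In the Erk experiment there were 4 libraries, 1 each of GV and MII oocytes, wild type and labelled Erk-/-. Females of 21 to 23 days received PMSG and hCG and were mated where embryos were collected, and each sample held 60 oocytes or embryos. The labels give neither the deleted part of Btg4, nor which Erk gene was removed, nor a Cre driver, and they leave unsaid whether the 2 libraries of a group had different mothers, so a p-value here reflects variation among libraries that could be purely technical.

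Depth, estimated from the intervals deposited with each value, was 2950000 to 5300000 fragments per library for Btg4 and 6100000 to 8890000 for Erk. Btg4 itself was no clean check of its labels: FPKM was 1980 and 1881 in the labelled Btg4-/- libraries at GV against 1450 and 1673 in wild type, 172 and 191 against 415 and 406 at MII, 139 and 164 against 610.3 and 559 in the zygote, and 3514 and 3632 against 1147 and 964 at 2 cells. It was thus higher in the labelled Btg4-/- libraries at GV and 2 cells and lower in between. A value per gene does not show whether the deleted part was transcribed. All 10 oocyte markers were above 1 FPKM in every group, and some differed with genotype at every stage. At GV 3 were lower and none higher in the labelled Btg4-/- libraries (6.46% and 1.45% of all genes tested were; median log2 difference -0.36). At MII 3 were higher and 3 lower (29.1% and 23.3% of all genes; median 0.07). In the zygote 5 were higher and none lower in the labelled Btg4-/- libraries (24.4% and 23.3% of all genes; median log2 difference 0.91). At 2 cells 9 were higher and none lower (22.6% and 26.4% of all genes; median 1.64). There the oocyte markers summed to 5029 to 5358 FPKM against 1668 to 1834 in wild type. Granulosa cell markers summed to 66.3 to 83.3 FPKM in the GV libraries of both genotypes, and to 4.77 to 10.6 FPKM in wild type against 1.05 to 2.11 FPKM in the labelled Btg4-/- libraries at MII. Blood cell markers summed to 50.3 to 85.0 FPKM in the wild-type MII libraries and to at most 1.53 FPKM in the labelled Btg4-/- ones. The part of these cells in the MII differences was not tested, nor was that of the oocyte markers' differences in those of the members at any stage.

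Values are FPKM, fragment counts divided by transcript length and by library size. Changes are differences of log2(FPKM + 1) with their standard error, which understates changes of low genes. A difference was called at an adjusted p under 0.05 in limma, with adjustment over all 12311 genes whose mean reached 1 FPKM in at least 1 of the 8 groups. Of the 35 members, 30 entered the test. Left out were Ube2d2b, Ube2dnl1 and Ube2dnl2, which are relatives of the Ube2d enzymes, Ube2l6, the E2 of the interferon-induced ISG15, and Ube2ql1, none of which had a group mean above 0.766 FPKM. FPKM is relative within a library, so a change of 1 transcript and an opposite change of the total mRNA per cell cannot be told apart. A rise or fall below is thus one relative to the other transcripts. Since mRNA was purified, a change of poly(A) tail length and a change of amount cannot be told apart either.

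The family made up 0.387 to 0.824% of the summed FPKM of a Btg4-experiment library, and a few members held most of it. At GV the summed level of the 35 members was 2546 ± 65.6 FPKM in wild type (SD, n = 2) and 3225 ± 272 in the labelled Btg4-/- group, and Ube2t, the E2 of the Fanconi anaemia DNA repair pathway, alone supplied 36.2% and 43.8% of it. At MII the totals were 1933 ± 76.3 and 1873 ± 5.36 FPKM, which differed by less than the wild-type SD. As a share of all summed FPKM they were not alike. The family made up 0.53 and 0.52% of the wild-type MII libraries and 0.39 and 0.40% of the labelled Btg4-/- ones. The leading members were not the same: Ube2d3 led in wild type with 22.4%, and Ube2b led in the labelled Btg4-/- libraries with 15.2%. At 2 cells the total was 1892 ± 6.55 FPKM in wild type, led by Ube2d3 (27.8%) and Ube2d2a (26.0%), and 3689 ± 63.6 FPKM in the labelled Btg4-/- embryos, where Ube2d3 (32.9%) and Ube2t (18.8%) led. The gap in share was smaller: 0.63 and 0.62% of all summed FPKM in the wild-type 2-cell libraries against 0.82 and 0.82% in the labelled Btg4-/- ones.

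**Figure D1:**
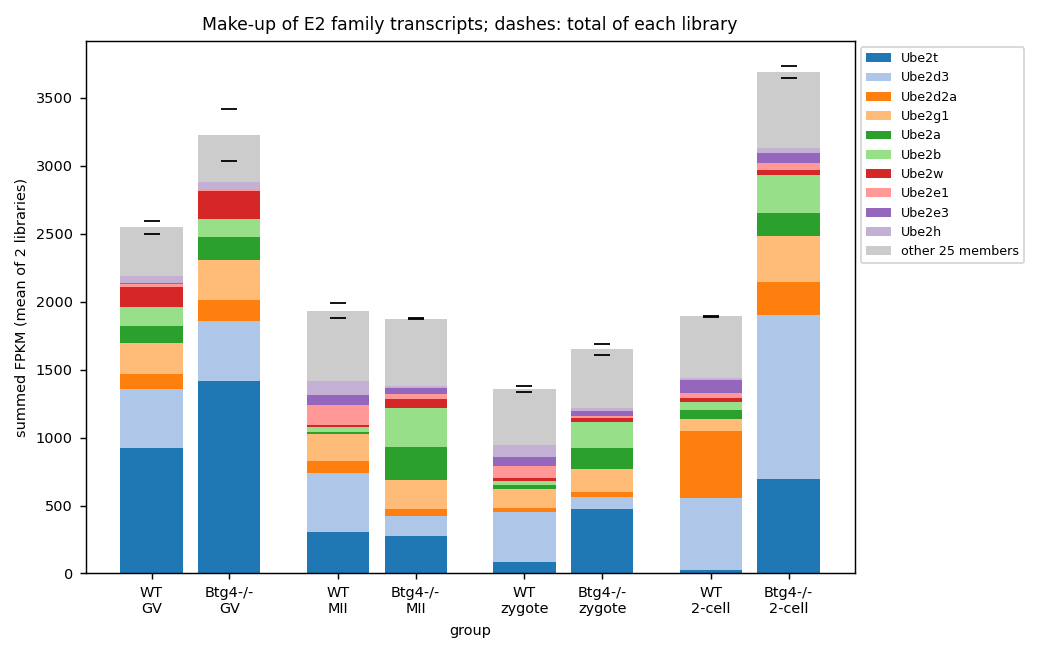
Summed FPKM of the 35 E2 family members in each of the 8 groups of the Btg4 experiment, stacked by member (mean of 2 libraries), with a dash for the total of each library. The MII totals lie close together (1933 and 1873 FPKM) with different members filling them, and the labelled Btg4-/- 2-cell total of 3689 FPKM stands above the wild-type 1892. The bars are not scaled to the summed FPKM of all genes, which differed between the genotypes.

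Few members were called between genotypes at GV and most of them from MII on. At GV, 2 members were higher (1.45% of all genes tested were) and 1 was lower (6.46%) in the labelled Btg4-/- oocytes. At MII, 9 members were higher and 13 lower of 30 tested, against 29.1% higher and 23.3% lower among all genes tested. In the zygote 10 were higher and 9 lower (24.4% and 23.3% of all genes). At 2 cells, where 9 of 10 oocyte markers were higher too, 13 members were higher and 7 lower (22.6% and 26.4% of all genes). The median of the 30 log2 differences at MII was -0.10 against 0.09 over all genes, and the median of their absolute sizes was 1.47 against 0.82. At MII the family thus had no shared direction in these values, and members with related names went opposite ways. The median depended on scaling and stage. Under quantile normalization it was -0.59 at MII against 0.00 over all genes, and without it 0.46 at 2 cells against -0.05.

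**Figure D2:**
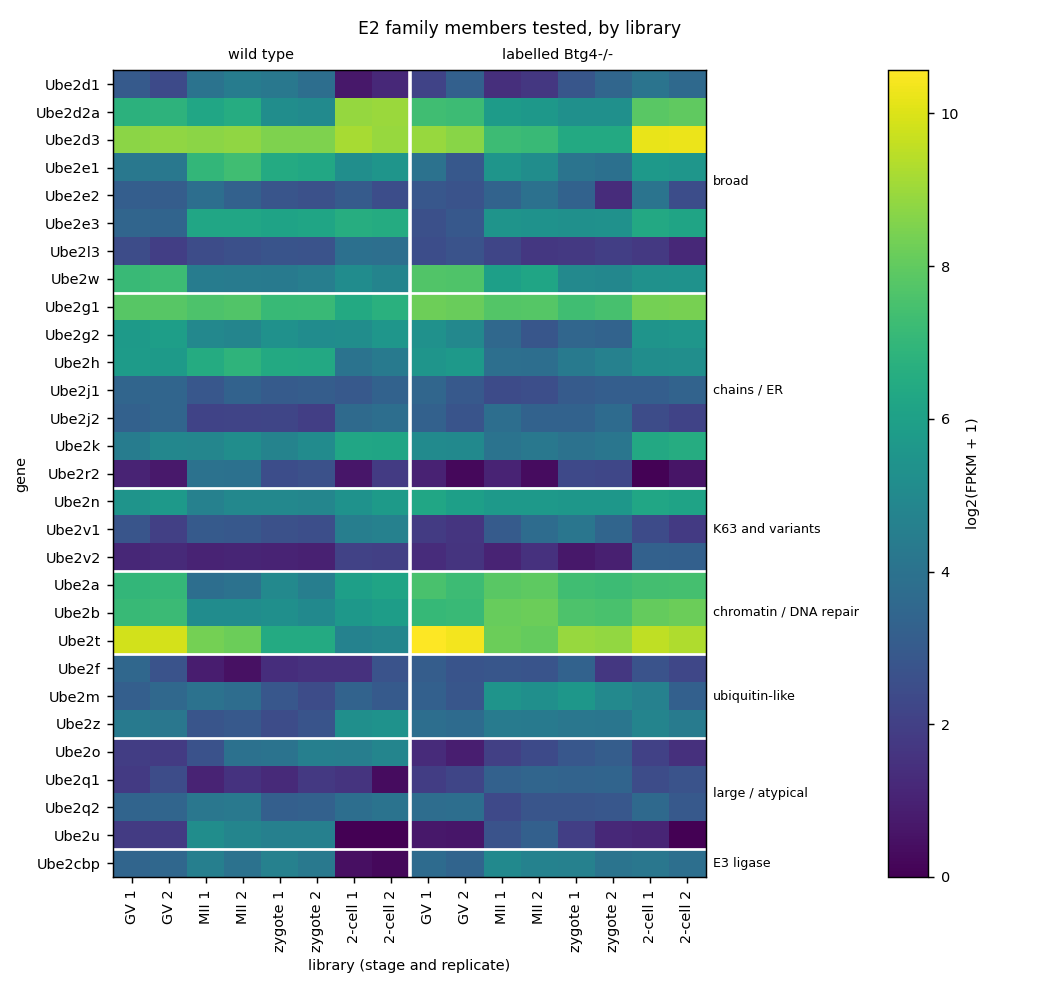
Log2(FPKM + 1) of tested members (rows, grouped by role) in the 16 libraries of the Btg4 experiment (columns, 2 per stage and genotype). Ube2a and Ube2b darken from GV to MII in wild type and stay bright in the labelled Btg4-/- libraries, while Ube2d1, Ube2h and Ube2r2 brighten at MII in wild type and not in the labelled Btg4-/- libraries.

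The largest genotype differences were those of Ube2t at 2 cells and Ube2a at MII, which belong to the chromatin and DNA repair enzymes. Ube2cbp (3.70) and Ube2r2 (3.25), of other groups, came before Ube2b (3.02). Ube2a (chromosome X, 34414361 to 34424215 in mm9) and Ube2b (chromosome 11, 51798648 to 51813968) are near-identical homologues of yeast Rad6, which ubiquitinate histone H2B with Rnf20 and Rnf40 and the clamp PCNA with Rad18. Embryos of mothers without Ube2a are known to stop at the first cleavages. In wild type Ube2a stood at 128 and 131 FPKM at GV and at 13.1 and 14.8 FPKM at MII. In the labelled Btg4-/- libraries it stood at 185 and 152 FPKM at GV and at 235 and 249 FPKM at MII. The level thus fell during maturation in wild type and not in the labelled Btg4-/- oocytes, and the genotypes did not overlap at MII. Ube2a was higher there by 4.02 ± 0.15 (adjusted p = 9.67e-10), 17.3 times the wild-type mean. The gap narrowed afterwards: Ube2a was 30.2 and 22.2 FPKM in wild type against 158 and 151 in the zygote, and 60.6 and 70.0 against 169 and 174 at 2 cells. Both later differences passed the test, at 2.53 ± 0.15 and 1.38 ± 0.15.

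Ube2b started level at GV, with 137 and 145 FPKM in wild type and 135 and 142 in the labelled Btg4-/- libraries. At MII it was 34.0 and 34.1 against 276 and 293 FPKM, a difference of 3.02 ± 0.12 (adjusted p = 1.65e-09). It stayed higher afterwards, at 37.2 and 31.5 against 196 and 184 FPKM in the zygote and 48.1 and 58.4 against 268 and 292 FPKM at 2 cells (2.44 ± 0.12 and 2.38 ± 0.12). Added together, the pair amounted to 48.0 ± 1.31 FPKM in wild-type MII oocytes and 526 ± 21.9 FPKM in labelled Btg4-/- ones. Reads of such similar genes can be shared between them, and the sum does not depend on that sharing.

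Ube2t (chromosome 1, 136859154 to 136870714), which with the ligase Fancl monoubiquitinates the Fanconi protein FANCD2, followed another course. It was the most abundant member at GV, with 911 and 933 FPKM in wild type and 1512 and 1314 in the labelled Btg4-/- libraries, and the difference of 0.61 ± 0.12 was called (adjusted p = 0.00769). That call was lost without labelled Btg4-/- GV library 1 (adjusted p = 0.0548), wild-type GV library 1 (0.0696) or wild-type GV library 2 (0.0529). At MII both genotypes had fallen to a similar level, 322 and 294 against 288 and 267 FPKM (-0.15 ± 0.12, adjusted p = 0.307), though quantile normalization gave a called difference of -0.66 there. From MII on the genotypes parted. Wild type went on to 86.5 and 86.6 FPKM in the zygote and 25.0 and 28.2 at 2 cells, while the labelled Btg4-/- libraries went up to 490 and 461 and then to 757 and 630 FPKM. The 2-cell difference of 4.65 ± 0.12 was the largest genotype difference of log2(FPKM + 1) of any member at any stage (adjusted p = 5.79e-11). The mean was 26.1 times the wild-type mean, which was not the largest ratio of means. Ube2cbp had 2-cell means of 0.258 FPKM in wild type and 15.4 FPKM in the labelled Btg4-/- embryos.

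The 3′ ends of Ube2t and Ube2a are shown because cytoplasmic polyadenylation elements and the signal for cleavage and polyadenylation act there and the pair differed in its course after MII. The windows are 30 bases from GENCODE M21 transcripts on GRCm38, 5′ to 3′, with the element in capitals (TTTTAT or TTTTAAT for the cytoplasmic element, AATAAA or ATTAAA for the signal), searched on the sense strand in the last 100 bases. The Ube2t cytoplasmic element ends 64 bases before the transcript end and its signal ends 16 bases before it.
Ube2t cytoplasmic element: aaggatagtttgTTTTATttatcttgtaca
Ube2t signal: ttaaacttgaaaAATAAAtaatacttaatg
Ube2a signal: tcaaaagttgtaAATAAAaaaataacctta
Of the 32 members with at least 100 bases of 3′ UTR, 4, with Ube2g2, Ube2q2 and Ube2t among them, held the cytoplasmic element, 12.5% against 19.77% of 10339 tested genes, and 28 held the signal, 87.5% against 81.77%. Ube2a held no cytoplasmic element in this window, and Ube2b held neither. These features were chosen after the expression values had been seen, and a match describes letters, not a working site.

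**Figure D3:**
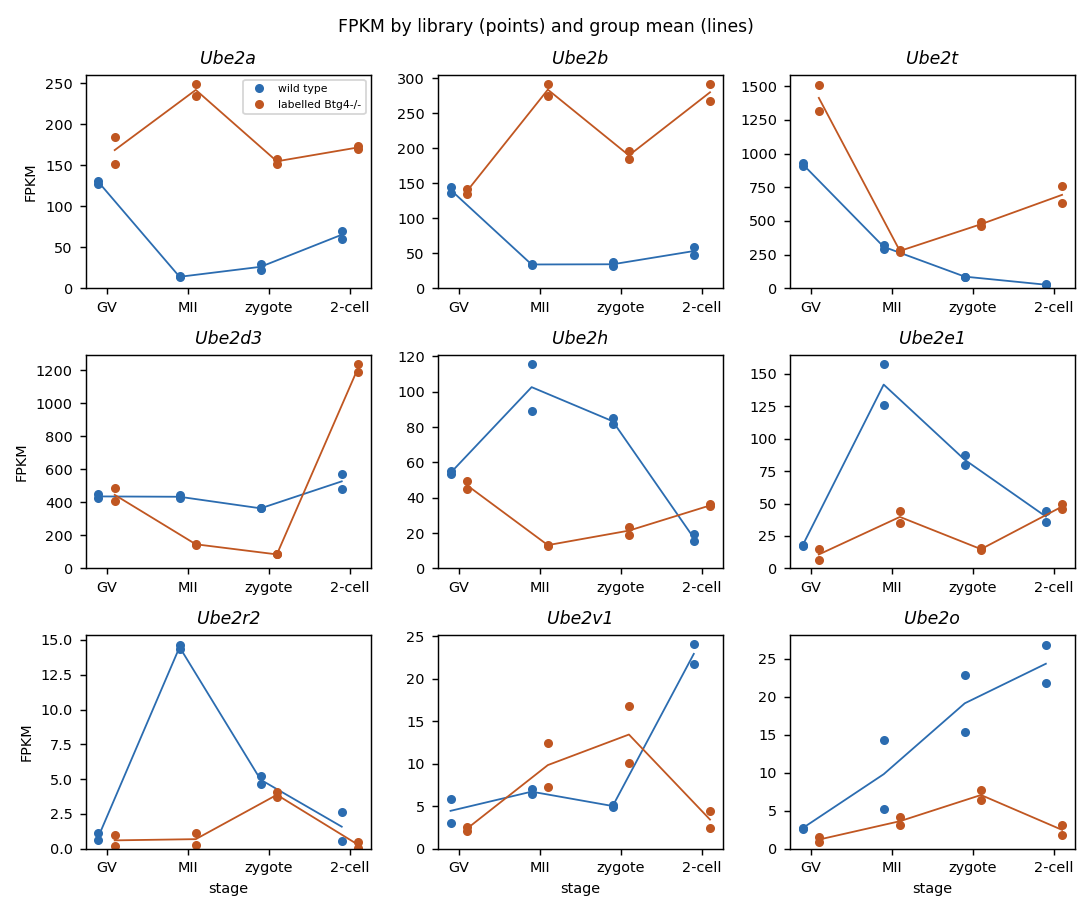
FPKM of 9 members at the 4 stages, with a point for each library and lines through the means of 2, in wild type and in libraries labelled Btg4-/-. Each axis starts at 0. Ube2a and Ube2b separate at MII, Ube2t separates from the zygote on, and Ube2d3, Ube2h and Ube2e1 lie lower in the labelled Btg4-/- libraries at MII and in the zygote and not at 2 cells.

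The broad initiating enzymes, which work with many RING ligases and place first ubiquitins, were mostly lower at MII. Of 8 tested 5 were lower, Ube2w was higher, and Ube2e2 and Ube2l3 were not called. Among all genes tested 23.3% were lower and 29.1% higher. Ube2d3 (chromosome 3, 135101723 to 135130142), the main UbcH5-type enzyme here, stood at 424 and 448 FPKM in wild-type GV, 424 and 443 in MII and 363 and 364 in zygotes. In the labelled Btg4-/- libraries it stood at 485 and 406, then 151 and 142, then 85.1 and 84.5 FPKM at those stages. The level was thus held in wild type and dropped in labelled Btg4-/- oocytes, with differences of -1.56 ± 0.11 at MII and -2.09 ± 0.11 in the zygote. At 2 cells the order turned, with 573 and 481 FPKM in wild type against 1187 and 1236 FPKM (1.20 ± 0.11, adjusted p = 1.75e-06). Under quantile normalization that 2-cell difference was 0.15 and was not called (adjusted p = 0.202). Its deposited FPKM lay above its own deposited interval in 18 of the 20 libraries, as did that of Ube2t, and with the centre of the interval put in place of such values all these calls were kept.

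Ube2d1, a close relative at a far lower level, was 6.97 and 4.12 FPKM in wild type and 3.33 and 8.50 in the labelled Btg4-/- libraries at GV, with overlapping groups. It was 15.5 and 20.5 FPKM in wild-type MII oocytes and 1.69 and 2.32 in labelled Btg4-/- ones (-2.66 ± 0.39, adjusted p = 7.56e-05). At 2 cells it was 0.618 and 1.32 against 15.6 and 11.4 FPKM, a difference of 2.88 ± 0.39 the other way. Between these stages, in the zygote, 17.7 and 13.0 against 6.12 and 10.3 FPKM gave -0.85 ± 0.39, which did not pass. Ube2d2a, the third enzyme of the subfamily, was lower at MII (-0.69 ± 0.12) and at 2 cells (-1.02 ± 0.12), and its GV difference of 0.47 was lost without any 1 of the 4 GV libraries (adjusted p = 0.123 to 0.192). Ube2d1, Ube2d2a and Ube2d3, which are similar enough to share reads, together made 536 ± 29.2 FPKM in wild-type MII oocytes and 200 ± 9.86 in labelled Btg4-/- ones, and 1020 ± 41.9 against 1467 ± 48.5 FPKM at 2 cells.

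Ube2e1 (chromosome 14, 19115243 to 19164358), which ubiquitinates histone H2A with Polycomb ligases, went from 17.8 and 17.6 FPKM in wild-type GV to 126 and 157 FPKM at MII. The labelled Btg4-/- libraries went from 15.0 and 6.50 to 44.3 and 35.1 FPKM. The transcript thus rose in both genotypes, by 2.92 ± 0.27 and by 1.88 ± 0.27, and ended lower in the labelled Btg4-/- oocytes (-1.81 ± 0.27). The zygote values were 87.4 and 80.0 against 15.7 and 14.0 FPKM (-2.42 ± 0.27), and at 2 cells 35.8 and 44.1 against 49.4 and 45.9 FPKM, not called. Its locus overlaps that of Nkiras1, and the strand of counting is not stated. Ube2e3 was lower at MII and in the zygote (-0.85 ± 0.14 at both) and also at GV (-0.66 ± 0.14), where the call was lost without labelled Btg4-/- library 1 (adjusted p = 0.0874) or either wild-type library (0.0970 and 0.0712). Ube2e2, at 1.52 to 15.9 FPKM over the 16 libraries, was called in no genotype comparison.

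Ube2w, which attaches ubiquitin to the amino terminus of proteins, was also higher in labelled Btg4-/- MII oocytes. It was 140 and 152 FPKM in wild-type GV and 20.7 and 20.1 at MII, against 207 and 202 and then 61.9 and 73.2 FPKM in the labelled Btg4-/- libraries (1.67 ± 0.15 at MII). Later differences were small: 19.6 and 22.2 against 30.2 and 28.7 FPKM in the zygote (0.48), and 34.6 and 26.5 against 39.4 and 40.5 FPKM at 2 cells (0.39). The zygote call was lost without wild-type library 1 (adjusted p = 0.105) or labelled Btg4-/- library 1 (0.0793), and the 2-cell call without wild-type library 2 (0.219) or either labelled Btg4-/- library (0.0883 and 0.120). Ube2l3, the partner of HECT and RBR ligases such as Arih1, differed last: 13.8 and 13.3 FPKM in wild-type 2-cell embryos against 2.41 and 1.30 in labelled Btg4-/- ones (-2.38 ± 0.27, adjusted p = 1.18e-05). Before that it was low in every group, at 4.56 and 2.92 against 4.60 and 5.53 FPKM at GV, 4.53 and 4.91 against 3.68 and 2.27 at MII, and 5.66 and 5.55 against 2.35 and 2.94 in the zygote. Its zygote difference of -0.86 was lost without labelled Btg4-/- library 1 (adjusted p = 0.109), wild-type library 1 (0.0731) or wild-type library 2 (0.0690).

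The chain-building enzymes and those of the endoplasmic reticulum were also mostly lower at MII, 5 of 7, with Ube2j2 higher and Ube2g1 not called. Of all genes tested 23.3% were lower and 29.1% higher. The call of Ube2j1, among the lower, did not hold without some single libraries. Ube2h (chromosome 6, 30161289 to 30254539), the E2 of the CTLH (GID) ligase with Maea and Rmnd5a, rose in wild type from 54.9 and 53.2 FPKM at GV to 89.4 and 116 at MII. In the labelled Btg4-/- libraries it fell from 44.7 and 49.6 to 13.4 and 12.9 FPKM, which left a gap of -2.86 ± 0.16 (adjusted p = 2.16e-08). In zygotes Ube2h was 85.0 and 81.6 against 19.1 and 23.7 FPKM (-1.92 ± 0.16). At 2 cells wild type had fallen to 15.3 and 19.2 FPKM, below the 35.1 and 36.2 of the labelled Btg4-/- embryos (1.01 ± 0.16). Ube2r2, the Cdc34-type enzyme that extends lysine 48 chains on targets of cullin-RING ligases, was 14.6 and 14.3 FPKM in wild-type MII oocytes and 1.09 and 0.259 in labelled Btg4-/- ones (-3.25 ± 0.40, adjusted p = 1.80e-05). Its GV values were 1.09 and 0.645 against 0.999 and 0.175 FPKM, its zygote values 4.67 and 5.23 against 4.04 and 3.69 FPKM, and its 2-cell values 0.547 and 2.60 against 0.0583 and 0.501 FPKM. In all other groups it was thus at or under 5.23 FPKM, and the wild-type MII level was a peak of 1 stage that the labelled Btg4-/- oocytes lacked.

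The 3′ ends of Ube2h and Ube2e1, members that rose in wild-type maturation, are set out for comparison with those of Ube2a and Ube2t, with the same source and marking.
Ube2h signal: taaacttttttaAATAAAatgtgtatatac
Ube2e1 signal: tgcatttgtgctAATAAAcaatattaagaa
Their signals end 21 and 20 bases before the transcript end, against 16 in Ube2t and 15 in Ube2a. Among all genes, those higher in labelled Btg4-/- MII oocytes had a median transcript length of 2105 bases and those lower 3734 bases, while for the E2 members the medians were 3077 and 3456 bases.

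Of the paralogues Ube2g1 and Ube2g2, the latter was called at MII and the former at 2 cells. Ube2g2 was 29.3 and 26.9 FPKM in wild type and 10.8 and 6.14 in labelled Btg4-/- oocytes at MII (-1.66 ± 0.23), 39.7 and 34.6 against 10.3 and 9.16 in the zygote (-1.83 ± 0.23), and was not called at GV (53.5 and 59.5 against 39.3 and 29.1 FPKM) or at 2 cells (35.0 and 45.8 against 43.3 and 45.3 FPKM), where the groups overlapped. Ube2g1 was 195 and 206 against 211 and 218 FPKM at MII, not called (0.10 ± 0.11), and quantile normalization turned this value to -0.36. Nor was it called at GV (223 and 228 against 300.3 and 282 FPKM) or in the zygote (137 and 141 against 159.5 and 178 FPKM). It was called at 2 cells, where 85.3 and 103 FPKM in wild type stood against 329 and 337 FPKM (1.82 ± 0.11, adjusted p = 3.94e-08). Ube2k, another builder of lysine 48 chains, was lower at MII (-0.88 ± 0.19) and in the zygote (-0.84 ± 0.19). Ube2j1 and Ube2j2 are anchored in the reticulum membrane and serve the degradation of misfolded proteins. Ube2j2 was higher at MII and in the zygote (1.45 ± 0.25 and 1.40 ± 0.25) and lower at 2 cells (-1.44 ± 0.25), and it overlaps the locus Gm5801. Ube2j1 was lower at MII (-0.64 ± 0.23), a call lost without wild-type MII library 2 (adjusted p = 0.250) or without either labelled Btg4-/- library (0.137 and 0.0754).

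Ube2n makes lysine 63 chains, which signal rather than direct proteins to the proteasome, and needs the catalytically inactive Ube2v1 or Ube2v2 as partner. Ube2n was higher in the labelled Btg4-/- libraries at MII, in the zygote and at 2 cells (0.94, 0.70 and 0.63, each ± 0.16). Under quantile normalization the 2-cell difference was 0.31 and was not called (adjusted p = 0.106). Its partners exchanged places at 2 cells. Ube2v1 was 21.8 and 24.1 FPKM in wild-type 2-cell embryos and 4.37 and 2.46 in labelled Btg4-/- ones (-2.47 ± 0.33, adjusted p = 4.92e-05). Ube2v2 was 3.27 and 2.98 against 8.67 and 8.51 FPKM (1.22 ± 0.23). Ube2v1 thus supplied 88.0% of the summed FPKM of the pair in wild type and 28.4% in the labelled Btg4-/- embryos. Ube2v1 was not called at GV (5.86 and 3.03 against 2.56 and 2.09 FPKM) or at MII (6.98 and 6.43 against 7.28 and 12.4 FPKM). In the zygote it had been higher in the labelled Btg4-/- embryos, with 16.8 and 10.0 against 5.13 and 4.89 FPKM (1.22 ± 0.33), a call lost without labelled Btg4-/- zygote library 1 (adjusted p = 0.0990).

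Of the enzymes that carry ubiquitin-like proteins, Ube2m, Ube2f and Ube2z were higher at MII in the labelled Btg4-/- oocytes. Both NEDD8 enzymes, Ube2m and Ube2f, switch on cullin-RING ligases. Ube2m was 14.8 and 12.5 against 43.2 and 37.2 FPKM at MII (1.49 ± 0.38) and 6.38 and 4.46 against 47.3 and 30.3 FPKM in the zygote (2.62 ± 0.38). Its GV values of 8.19 and 10.9 against 8.38 and 6.04 FPKM and 2-cell values of 9.22 and 7.04 against 23.9 and 8.48 FPKM overlapped between genotypes, and the 2-cell difference was called only without labelled Btg4-/- library 2 (1.46, adjusted p = 0.00380). Ube2f was 0.787 and 0.389 against 6.13 and 5.79 FPKM at MII (2.14 ± 0.50), and its zygote difference of 1.07, from 1.62 and 1.85 against 8.93 and 2.30 FPKM, did not pass (adjusted p = 0.0975) unless labelled Btg4-/- zygote library 2 was left out (0.0107). At GV (10.5 and 5.46 against 7.72 and 5.68 FPKM) and at 2 cells (1.8 and 5.60 against 5.49 and 3.73 FPKM) its groups overlapped. Ube2z, which receives ubiquitin and FAT10 from Uba6, was higher at MII (1.49 ± 0.17) and in the zygote (1.56 ± 0.17) and lower at 2 cells (-0.75 ± 0.17).

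Among the large or atypical enzymes, Ube2o, a hybrid of E2 and E3 that clears unassembled proteins, was lower in the labelled Btg4-/- libraries from MII on. At GV it was 2.76 and 2.61 FPKM against 1.48 and 0.874, not called. It was 5.26 and 14.3 FPKM against 3.04 and 4.15 at MII, 15.4 and 22.8 against 6.32 and 7.77 in the zygote and 21.8 and 26.8 against 3.16 and 1.75 at 2 cells. The 2-cell difference was -2.90 ± 0.38 (adjusted p = 3.71e-05). Those at MII (-1.10) and in the zygote (-1.30) rested on single libraries: the first was lost without wild-type MII library 2 (-0.46, adjusted p = 0.325) or labelled Btg4-/- MII library 1 (0.140), the other without wild-type zygote library 2 (0.105) or labelled Btg4-/- zygote library 1 (0.0755). Ube2q1, whose loss in mice impairs female fertility, was 1.07 and 1.92 against 8.77 and 10.0 FPKM at MII (2.08 ± 0.37), after overlapping values of 2.49 and 4.53 against 2.83 and 3.67 FPKM at GV. It stayed higher in the zygote, at 1.42 and 2.35 against 9.22 and 9.69 FPKM (1.87), and at 2 cells, at 1.97 and 0.281 against 4.54 and 5.48 FPKM (1.62). Ube2q2 went the other way at MII, 17.1 and 18.1 against 3.99 and 5.97 FPKM (-1.66 ± 0.23), so that the summed FPKM of the 2 paralogues came from Ube2q1 at 7.83% in wild type and 65.4% in labelled Btg4-/- oocytes. Ube2q2 was 9.66 and 9.99 against 12.8 and 13.3 FPKM at GV and 8.10 and 8.62 against 5.88 and 6.32 FPKM in the zygote, neither called. Its 2-cell difference of -0.64 (13.1 and 15.0 against 11.1 and 6.69 FPKM) was lost without wild-type library 2 (adjusted p = 0.136) or labelled Btg4-/- library 2 (0.284).

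Ube2u was 34.8 and 26.7 FPKM in wild-type MII oocytes against 5.52 and 8.35 in labelled Btg4-/- ones, and 22.9 and 23.5 against 2.91 and 1.35 FPKM in the zygote (-2.01 ± 0.35 and -3.00 ± 0.35). With a pseudocount of 0.1 in place of 1 the MII difference was -2.15 and just missed the threshold (adjusted p = 0.0521). At GV it was 2.60 and 2.50 against 0.592 and 0.557 FPKM, not called. Both wild-type 2-cell libraries listed it at 0, and the labelled Btg4-/- ones at 1.11 and 0 FPKM. Ube2cbp, an E3 ligase despite its name, was 22.6 and 14.8 against 30.9 and 24.8 FPKM at MII, not called, although it was called without wild-type MII library 1 (adjusted p = 0.0338) and with the replicate number as a block (0.0217). Its groups overlapped at GV (9.92 and 10.4 against 12.0 and 9.44 FPKM) and in the zygote (23.7 and 18.0 against 24.0 and 15.5 FPKM). At 2 cells it was 0.350 and 0.166 FPKM in wild type against 17.3 and 13.5 FPKM in the labelled Btg4-/- embryos (3.70 ± 0.26, adjusted p = 1.92e-07).

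Members rose and fell during maturation in both genotypes, as many other genes did. The median absolute log2 change of the members was 0.94 in wild type, near the 0.83 of all genes. In the labelled Btg4-/- oocytes it was 1.10 against 0.69. From GV to MII, 10 members rose and 10 fell in wild type (25.2% and 28.5% of all genes tested did), and 12 rose and 11 fell in the labelled Btg4-/- oocytes (27.3% and 18.1%). The test of the difference between the genotypes' steps called 8 members with a higher step in the latter (26.5% of all genes) and 10 with a lower one (16%). The called members followed several patterns. Ube2a, Ube2b and Ube2z fell in wild type and rose in the labelled Btg4-/- oocytes, the latter by 0.53, 1.03 and 0.61, while Ube2f, Ube2j2 and Ube2n fell in wild type without a called change in the other genotype. Ube2d1, Ube2h and Ube2q2 rose in wild type and fell in the labelled Btg4-/- oocytes, and Ube2r2 rose in wild type with no called change in the other genotype, by 3.06 ± 0.40 against 0.08. Ube2e1, Ube2e3, Ube2o, Ube2u and Ube2cbp rose, and Ube2d2a, Ube2g2, Ube2t and Ube2w fell, in both. A change was called in the labelled Btg4-/- oocytes and not in wild type for 3 that rose, Ube2m, Ube2q1 and Ube2v1, and 4 that fell, Ube2d3, Ube2g1, Ube2j1 and Ube2k. Ube2e2, Ube2l3 and Ube2v2 were called in neither. Some of these calls rested on single libraries or on the scaling. The rise of Ube2a in the labelled Btg4-/- oocytes was lost without GV library 2 (adjusted p = 0.116) or MII library 2 (0.0718) and came to 0.11 under median-of-ratios scaling, and that of Ube2z was lost without GV library 2 (0.0662) or MII library 1 (0.0556) and came to 0.22 under that scaling. The fall of Ube2d1 there was lost without GV library 2 (0.348), MII library 1 (0.158) or MII library 2 (0.0675), and its wild-type rise without GV library 2 (0.0508). The wild-type rise of Ube2q2 was lost without GV library 1 (0.0536) or MII library 2 (0.0555), that of Ube2o without MII library 2 (0.0938) and that of Ube2cbp without GV library 1 (0.0909), GV library 2 (0.0693) or MII library 1 (0.198). The wild-type fall of Ube2d2a was lost without GV library 2 (0.0817) or MII library 1 (0.144), and the labelled Btg4-/- rise of Ube2o without any 1 of its 4 libraries (0.0515 to 0.178). There the rise of Ube2q1 was lost without GV library 1 (0.0790) or MII library 2 (0.0708), and the fall of Ube2j1 without GV library 1 (0.159) or MII library 1 (0.0810).

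**Figure D4:**
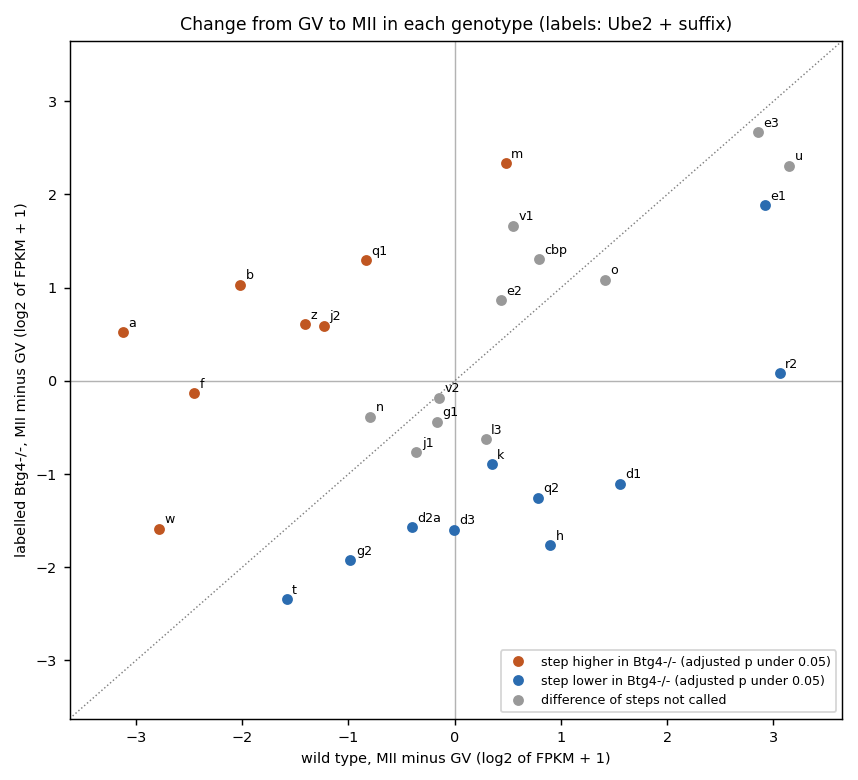
Change from GV to MII (difference of log2(FPKM + 1)) in wild type on the x axis and in libraries labelled Btg4-/- on the y axis for tested members, coloured by the test of the difference between the steps. Points on the dotted line changed alike. Ube2a, Ube2b and Ube2z lie at the upper left (down in wild type, up in the labelled Btg4-/- oocytes) and Ube2d1, Ube2h and Ube2q2 at the lower right.

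Fewer members changed between MII and the zygote, a span around fertilization with little new transcription. In wild type 1 rose, Ube2a by 0.84, and 7 fell, among them Ube2t (-1.82), Ube2r2 (-1.38) and Ube2d2a (-1.28), against 20.5% and 8% of all genes. Under median-of-ratios scaling 11 fell, and without wild-type MII library 2 or wild-type zygote library 2 there were 4. In the labelled Btg4-/- group 4 rose, among them Ube2d1 (1.59), Ube2r2 (1.58) and Ube2t (0.78), and 8 fell, against 10.3% and 5.38% of all genes. Those counts were 2 and 4 without labelled Btg4-/- MII library 1, 1 and 3 without MII library 2 and 1 and 2 without zygote library 2. The change of Ube2r2 in wild type was lost without any 1 of its 4 libraries (adjusted p = 0.0789 to 0.0955), and that in the labelled Btg4-/- group without MII library 2 (0.156), zygote library 1 (0.0918) or zygote library 2 (0.0888). Ube2a fell in the labelled Btg4-/- group by 0.64, a call lost without any 1 of its 4 libraries (0.0555 to 0.0930) and under quantile normalization (0.1045). The rise of Ube2d1 was lost without MII library 1 (0.104), MII library 2 (0.0546) or zygote library 2 (0.150). The difference between the genotypes' steps was called for 5 members with a higher and 4 with a lower step in the labelled Btg4-/- group (4.95% and 7.25% of all genes), and without single libraries for 3 to 4 and 2 to 3.

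From zygote to 2 cells, when the embryonic genome becomes active, 14 members rose and 9 fell in wild type (27.1% and 30.2% of all genes) and 13 rose and 6 fell in the labelled Btg4-/- embryos (18.3% and 28.2%). The fall count was 3 without labelled Btg4-/- 2-cell library 2. Ube2d2a rose by 3.82 ± 0.12 in wild type and by 2.62 ± 0.12 in the labelled Btg4-/- embryos, and Ube2d3 by 0.53 ± 0.11 and 3.82 ± 0.11. Ube2b, Ube2e3, Ube2k, Ube2n, Ube2v2 and Ube2w rose in both as well. Ube2z, Ube2l3, Ube2a and Ube2q2 rose in wild type with no called change in the other genotype, and Ube2v1 and Ube2j2 rose in wild type, by 1.99 and 1.64, and fell in the labelled Btg4-/- embryos, by 1.70 and 1.20. Conversely Ube2t, Ube2h, Ube2e1 and Ube2g1 fell in wild type and rose in the labelled Btg4-/- embryos. The difference between the steps was called for 13 members with a higher and 8 with a lower step in the labelled Btg4-/- embryos, against 22.2% and 25.9% of all genes. In the labelled Btg4-/- embryos the rise of Ube2w was lost without any 1 library (adjusted p = 0.0668 to 0.120), and that of Ube2t came to 0.23 under quantile normalization (0.148). In wild type the rise of Ube2q2 was lost without 2-cell library 2 (0.0970), zygote library 1 (0.0905) or zygote library 2 (0.0604), that of Ube2e3 without 2-cell library 1 (0.0891), zygote library 1 (0.143) or zygote library 2 (0.0824), that of Ube2w without zygote library 1 (0.0641), and the fall of Ube2e1 without 2-cell library 1 (0.0567).

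The promoters of members that rose at least 2-fold at this step in wild type and had a lower step in the labelled Btg4-/- embryos were examined because embryonic transcription starts at this step. There were 6 such members, Ube2a, Ube2d2a, Ube2j2, Ube2l3, Ube2v1 and Ube2z, chosen after the values had been seen, so their shared rise in wild type is the choice itself. They did not move as one in the labelled Btg4-/- embryos: Ube2d2a rose, Ube2j2 and Ube2v1 fell, and Ube2a, Ube2l3 and Ube2z were not called. For 3 of them the 120 bases before the start site follow, from RefSeq on GRCm38.p6, 5′ to 3′ on the gene's strand, with GGGCGG boxes on either strand in capitals.
Ube2v1, chr2:167632006-167632125, minus strand: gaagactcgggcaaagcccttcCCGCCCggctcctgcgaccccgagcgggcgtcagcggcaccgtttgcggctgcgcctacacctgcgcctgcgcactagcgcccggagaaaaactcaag
Ube2z, chr11:96065365-96065484, minus strand: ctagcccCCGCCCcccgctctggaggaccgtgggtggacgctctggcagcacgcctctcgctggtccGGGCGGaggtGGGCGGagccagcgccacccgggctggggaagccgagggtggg
Ube2l3, chr16:17201493-17201612, minus strand: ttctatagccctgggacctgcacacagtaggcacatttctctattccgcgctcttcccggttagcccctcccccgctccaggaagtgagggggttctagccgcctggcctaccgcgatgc
Ube2v1 held 1 box, Ube2z held 3 and Ube2l3 none, and no CCAAT box was found in any of these 3 windows. The 28 members matched in RefSeq had 39 promoters, of which 20 held a GGGCGG box and 3 a CCAAT box. Of all 32851 promoters, 26.48% held the former and 21.29% the latter in a window of this length.

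Around the E2 enzymes, the other steps of the cascade were read from lists of genes by function. At MII 12 of 16 tested ubiquitin and ubiquitin-like genes were higher in the labelled Btg4-/- oocytes and 3 lower (75.0% and 18.8%, against 29.1% and 23.3% of all genes tested), with a median log2 difference of 1.43 against 0.09 over all genes. Rps27a, which encodes ubiquitin fused to a ribosomal protein, was 14.3 and 5.36 FPKM in wild type and 230.5 and 277 in labelled Btg4-/- oocytes, and Urm1 was higher by 2.43. Sumo2 was 938 and 1021 against 162 and 163 FPKM (-2.58 ± 0.21), and Atg12 was lower (-1.02). At 2 cells this list stood the other way, with 4 higher and 9 lower (25.0% and 56.2%, against 22.6% and 26.4% of all genes) and a median of -1.0.

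The RING, HECT and RBR ligases that pair with E2 enzymes were mostly lower at MII, 30 of 51 tested (58.8% against 23.3% of all genes), with 8 higher (15.7% against 29.1%) and a median of -0.79. At 2 cells 13 were higher and 15 lower (25.5% and 29.4%, near the 22.6% and 26.4% of all genes), with a median of -0.07. Rnf20, the partner of Ube2a and Ube2b at histone H2B, was 13.6 and 15.6 FPKM in wild-type MII oocytes and 0.932 and 1.27 in labelled Btg4-/- ones (-2.89 ± 0.25). Fancl, the partner of Ube2t, was 0.348 and 0.668 against 13.8 and 22.0 FPKM (3.62 ± 0.32). These E2 and E3 transcripts that act as pairs thus did not differ alike: Ube2a and Ube2b were higher with Rnf20 lower, and Fancl was higher while Ube2t was not called. Stub1 was higher (1.67) and Wsb1 lower (-3.43).

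In the other lists at MII, 2 of 9 E1 enzyme genes were higher (Mocs3 and Uba3) and 3 lower (22.2% and 33.3%, against 29.1% and 23.3% of all genes), with a median of -0.24. Nae1, which with Uba3 activates NEDD8 for Ube2m and Ube2f, was 175 and 201 against 26.2 and 28.5 FPKM, and Uba2, of the SUMO E1, was 128 and 138 against 36.3 and 36.8 FPKM. E2 genes with other names were higher for 1 of 8, the UFM1 enzyme Ufc1 (1.93 and 1.19 against 39.2 and 40.7 FPKM), and lower for 4, among them Atg3 and Birc6. These were 12.5% and 50.0% of that list, against 29.1% and 23.3% of all genes. The cullin-RING core counted 6 higher and 7 lower of 23 (26.1% and 30.4%, near the 29.1% and 23.3% of all genes), with a median of 0.23. Tceb1 (elongin C) was 93.3 and 113 against 1368 and 1363 FPKM, Rnf7, the RING subunit that Ube2f serves, was higher by 3.18, and Cul3 and Cul4b were lower (-2.71 and -2.48). Deubiquitinases counted 12 higher and 22 lower of 48 (25.0% and 45.8%, against 29.1% and 23.3% of all genes; median -0.35), led by Psmd14 of the proteasome lid (4.21) and Usp5 (3.17) among the higher and by Usp16 (-3.28) and Otud4 (-3.21) among the lower.

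In the Erk experiment each group was 1 library, so differences have no replicate check, and only changes past 2-fold on the log2(FPKM + 1) scale are counted. The wild-type MII library stood apart: 7265 genes reached 1 FPKM in it against 8909 to 9253 in the other 3 libraries, although its depth was the greatest, and 10 members were listed at 0 against 5 to 9. Its part in the wild-type falls and in the MII differences was not tested. Mapk3, an Erk gene, was 52.3 and 34.3 FPKM in the labelled Erk-/- GV and MII libraries against 333 and 25.7 FPKM in wild type. Of 31 members that reached 1 FPKM in some library, 16 were past 2-fold lower and 3 higher from GV to MII in wild type (46.9% and 20.4% of 11404 genes), and 6 were lower and 6 higher in the labelled Erk-/- oocytes (33.4% and 23.9%). Median-of-ratios scaling changed the wild-type counts to 9 lower and 9 higher. At MII, 11 members were past 2-fold higher and 2 lower in the labelled Erk-/- library (30.7% and 8.08% of genes), and under median-of-ratios scaling 6 were lower. At GV 5 were higher and 7 lower (18.7% and 23.5%).

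Ube2a went from 28.6 to 3.26 FPKM from GV to MII in the wild-type libraries and from 54.6 to 46.0 FPKM in the labelled Erk-/- ones. Ube2b, which had differed between the genotypes of the Btg4 experiment in much the same way, went from 55.4 to 14.8 FPKM in wild type and from 13.3 to 16.4 FPKM in labelled Erk-/- oocytes, so that both ended at a similar level. Ube2w went from 39.3 to 0.954 FPKM and from 22.7 to 8.91 FPKM. Ube2d1, listed at 0 in wild-type GV, stood at 15.1 FPKM at MII, while in the labelled Erk-/- libraries it was 6.49 and 4.44 FPKM. Ube2m, Ube2f and Ube2q1 were listed at 0 in the wild-type MII library after 45.8, 32.7 and 29.9 FPKM at GV, in the library with the fewest genes at 1 FPKM.

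**Figure D5:**
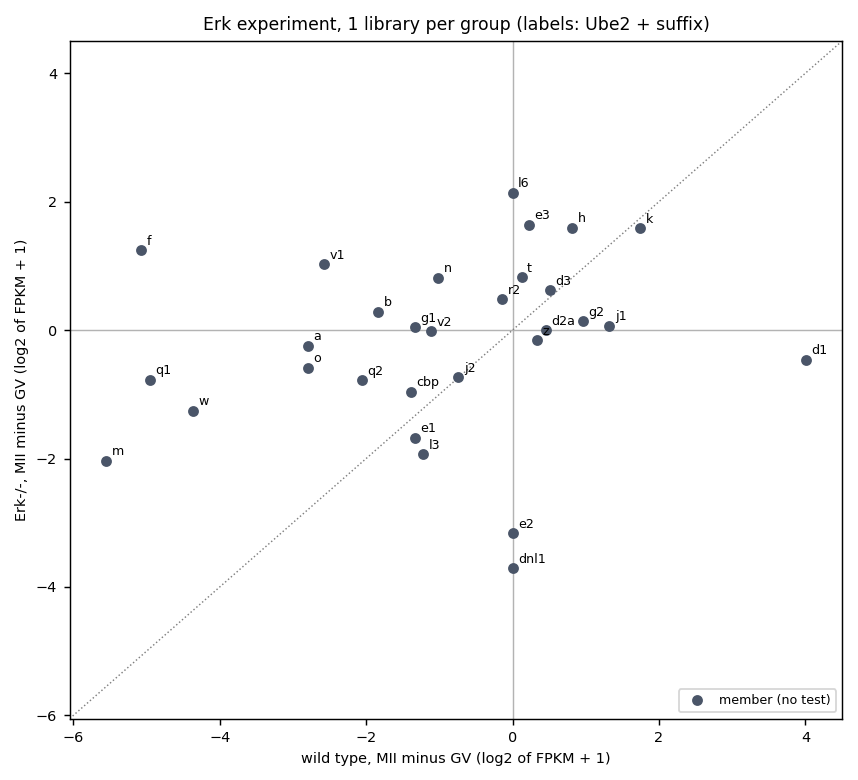
Change from GV to MII (difference of log2(FPKM + 1)) in the wild-type pair of libraries on the x axis and in the labelled Erk-/- pair on the y axis, for members that reached 1 FPKM in the Erk experiment, 1 library per group and no test. More members lie past 2-fold lower on the x axis than on the y axis.

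The wild-type maturation step could be set side by side in the 2 experiments, which share no library. Of the 13 members with a called change of at least 2-fold in the Btg4 experiment that reached 1 FPKM in the Erk experiment, 7 had the same sign in the wild-type Erk libraries and 6 the opposite one. The all-gene median change of that Erk pair was -0.76, and relative to it the counts were again 7 and 6 with Ube2j2 and Ube2r2 exchanged. Ube2a (-3.12 and -2.80), Ube2b (-2.02 and -1.84), Ube2w (-2.78 and -4.36), Ube2f (-2.45 and -5.08), Ube2j2 (-1.23 and -0.74), Ube2d1 (1.56 and 4.01) and Ube2e3 (2.85 and 0.23) had the same sign. Among those with the opposite sign were Ube2e1 (2.92 and -1.33), Ube2o (1.41 and -2.79), Ube2r2 (3.06 and -0.14), Ube2t (-1.58 and 0.12) and Ube2z (-1.41 and 0.33).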

How the data were processed

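Gene-level FPKM values were used as the authors deposited them, 1 table per library with 23813 loci on mm9; CASAVA 1.8, TopHat and Cufflinks are named in the submitters' processing notes. For TopHat and Cufflinks the version is not given in the sources used here, nor is the annotation. Loci sharing a symbol were summed to 23309 symbols (260 had more than 1 locus, no member among them). FPKM are not counts, so log2(FPKM + 1) was fitted with limma 3.58.1 in R 4.3.3 (group means over 16 libraries, 8 residual degrees of freedom, moderated variance with trend, two-sided, Benjamini-Hochberg over 12311 genes, threshold 0.05). The scripts were tested on simulated data, where the share of false calls was above the level aimed at, so calls near the threshold are liberal. Replicate pairs differed by 1.742 to 4.64 times the variance the deposited intervals give, so none was treated as a duplicate; intervals were taken as 4 SDs wide and depth was read from genes of 20 to 500 implied fragments. Groups come from sample titles.

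Values of every Btg4-experiment library are given for the 20 members with the largest called difference between genotypes, of at least 2-fold, at MII, in the zygote or at 2 cells. The others are given by range, count or difference, and where Ube2z, Ube2j2, Ube2v2, Ube2d2a or others have more, they were named after their values were seen. At most 2 genes per direction of each pathway list are named, by size at MII. Results for some genes are not reported here; counts over all members include every member. Members, lists and sequence features were chosen with earlier results of these data known. Alternatives were a pseudocount of 0.1, no filter, a filter at 5 FPKM, the highest locus per symbol, median-of-ratios and quantile scaling, a replicate block, each pair of groups fitted alone, each library left out and, added after seeing the data, interval centres. Python 3.11.15, pandas 2.3.3 and matplotlib 3.10.9 were used for tables and figures.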

Additional observations from a re-analysis of the deposited data

Results flagged for a closer look

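For 15 members and steps the wild-type and labelled Btg4-/- libraries changed in opposite directions, each change called on its own and the difference between the steps called too (limma, Benjamini-Hochberg over 12311 genes). Values are the labelled Btg4-/- step minus the wild-type step on the log2(FPKM + 1) scale. From GV to MII these were Ube2a (3.65), Ube2b (3.05) and Ube2z (2.02), which fell in wild type, and Ube2d1 (-2.66), Ube2h (-2.66) and Ube2q2 (-2.04), which rose in wild type. From MII to the zygote they were Ube2a (-1.48), Ube2r2 (2.96) and Ube2t (2.59). From zygote to 2 cells they were Ube2e1 (2.67), Ube2g1 (1.54), Ube2h (2.93) and Ube2t (2.21), which fell in wild type, and Ube2j2 (-2.85) and Ube2v1 (-3.70), which rose. Ube2a, Ube2h and Ube2t each appear at 2 steps. The single steps were less firm: in 9 of the 15 some alternative ended the call of the wild-type or the labelled Btg4-/- step, and in 6 none did (Ube2b and Ube2h from GV to MII, Ube2t from MII to zygote, and Ube2g1, Ube2h and Ube2j2 from zygote to 2 cells). The labelled Btg4-/- fall of Ube2a from MII to zygote was lost without any 1 of its 4 libraries (adjusted p = 0.0555 to 0.0930) and under quantile normalization (0.1045), and that of Ube2v1 from zygote to 2 cells with the groups fitted alone (0.0565). Of the 15 tests of the difference, 14 kept their call in every alternative run, and that of Ube2r2 missed the threshold with a pseudocount of 0.1.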

How the results depend on the processing

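Of the members' calls and the counts of calls, those between genotypes at MII, in the zygote and at 2 cells moved little: leaving out 1 library gave 9 to 10 higher and 11 to 13 lower at MII, 8 to 11 and 7 to 9 in the zygote, and 12 to 14 and 6 to 8 at 2 cells. The GV counts (2 higher, 1 lower) did not hold: they were 4 and 2 with a filter at 5 FPKM, 6 and 0 under median-of-ratios scaling, 1 and 0 under quantile normalization, 0 and 0 with the 2 groups fitted alone, 1 higher with interval centres, and 0 to 1 of each without single libraries. Without single libraries the wild-type steps gave 8 to 9 rises and 9 to 10 falls from GV to MII, 1 to 2 and 4 to 5 from MII to zygote and 11 to 13 and 8 to 9 from zygote to 2 cells. The labelled Btg4-/- steps gave 9 to 11 and 10 to 11, 1 to 3 and 2 to 6, and 12 to 15 and 3 to 6. The differences between steps gave 6 to 8 higher and 8 to 10 lower, 3 to 4 and 2 to 3, and 12 to 13 and 7 to 8. From MII to zygote in wild type, rises were 2 with a filter at 5 FPKM and 0 with the groups fitted alone, and falls 11 under median-of-ratios scaling. In the labelled Btg4-/- group at that step rises were 1 and falls 5 with the groups fitted alone, and falls 4 under quantile normalization, while from zygote to 2 cells falls were 2 with the groups fitted alone. Lower differences between steps from MII to zygote were 2 without a filter and 2 under median-of-ratios scaling. In the Erk experiment median-of-ratios scaling gave 6 lower in place of 2 between genotypes at MII, and 9 higher and 9 lower in place of 3 and 16 in wild-type maturation. Ube2g1 at MII, not called, turned to a called -0.36 under quantile normalization. The cause of these changes was not tested, except that a pair of groups fitted alone and a library left out have fewer samples.

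Between the labelled groups the all-gene median differed from 0 by over 0.1 at GV (-0.12) and in the step from MII to zygote in wild type (0.22), among others, and scaling by median of ratios brought these to 0.00 and 0.04. Same-numbered libraries did not deviate together (correlation of deviations -0.015 to 0.126 over 28 pairs of groups, above 0.1 in 2), so the numbers were not taken as pairing. A replicate block added 3 member calls and ended none, with 10 higher and 13 lower at MII. Members under 1 FPKM rest on the fewest fragments, and with 2 libraries per group the spread is known only by sharing it over groups.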
